A study of Homo sapiens with 22 samples.

Results

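The 9 genes described here encode proteins that move ions, and with them fluid, across the intestinal epithelium: CFTR, SLC9A2, SLC9A3, SLC26A3, SLC26A6, SLC12A2, ATP1B1, SCNN1A and KCNN4. They were chosen by name from known roles, with earlier results of these data known, so they are not an unbiased draw from all genes. All were found among the 61487 genes of the count table, and all 9 passed the filter on low counts together with 20373 genes in all. RNA came from cultures of Caco-2, a line from a human colon cancer that serves as a model of gut epithelium. The cells had grown for 48 h, and then 10% of the medium was replaced for another 48 h. The replacement was PBS (n = 4) or FWctl, which is faecal water (FW) of untreated mice (n = 7). Other samples had FWatb, which is FW of the same mice under oral antibiotics (n = 7), or ATB, the antibiotic cocktail itself (n = 4). In the drinking water of the mice the cocktail held neomycin at 1 g/L, vancomycin at 0.5 g/L and meropenem at 0.25 g/L. The methods do not give its concentration in the culture medium. All groups were 1 cell line, and the culture medium of every group, PBS included, also held an antibiotic-antimycotic mix. Nothing in the labels says that samples of a group were separate cultures, so the p-values measure the spread between these samples only.

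In the gut, fluid follows salt. Absorption is driven by exchangers and channels of the apical membrane that take up sodium and chloride, and secretion by chloride leaving through CFTR after it has entered at the basolateral side through the cotransporter encoded by SLC12A2. The sodium pump keeps the sodium gradient for both, and potassium channels such as that of KCNN4 keep the membrane voltage that drives chloride out.

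Total counts ranged from 7118302 to 18726967 per library. FWctl replicate 1 lay at 8.74 on the first principal component, against 34.5 to 38.9 for the other FWctl libraries and -17.7 to -12.6 for the other groups, and it is given apart, which leaves 6 FWctl libraries in the tests. The study's methods leave out 1 FWctl sample without naming it. Transcripts of ribosomal DNA (rDNA) took very different shares of the libraries, with 8 libraries at 0.0161% to 0.0804% and 14 at 1.87% to 8.19%. All 7 FWatb libraries, 2 of 4 PBS, 1 of 4 ATB and 4 of 7 FWctl libraries were in the set of 14, called high-rDNA here. Within-set values are therefore given for some members and comparisons, not for all. Of 10 epithelial markers, 8 reached 50 counts in some library, whereas CDX1 was nearly absent (at most 2 counts under PBS), as were the leukocyte gene PTPRC (at most 2), the macrophage gene CD68 (at most 3) and the fibroblast gene DCN (at most 2). Of the same 8 immune, endothelial and stromal markers, 3 reached 50 counts in some library, with at most 141 for COL1A1, 118 for PECAM1 and 68 for VWF.

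Normalized counts below are counts scaled to a common library size, and a member was called where the adjusted p of edgeR's quasi-likelihood test was under 0.05 over all genes tested. Between FWctl and PBS, 6 of the 9 members were called, 1 higher and 5 lower under FWctl. Over all genes 46.4% were called, 24.3% higher and 22.1% lower. Between FWatb and PBS, 3 members were called, all lower, against 9.99% of all genes (6.04% higher and 3.95% lower). Between ATB and PBS, 1 member was called, higher, against 0.285% of all genes (0.255% higher and 0.0295% lower). Between FWatb and FWctl, 6 members were called, 4 higher and 2 lower under FWatb, against 48.8% of all genes (23.4% higher and 25.4% lower). Between FWatb and ATB, 5 members were called, all lower, against 14.5% of all genes (7.66% higher and 6.86% lower). The median log2 fold change over the 9 members was -0.35 for FWctl against PBS (0.02 over all genes) and 0.29 for FWatb against FWctl (-0.01 over all genes). The comparisons share their PBS, FWctl or FWatb samples and are not independent of each other.

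**Figure D1:**
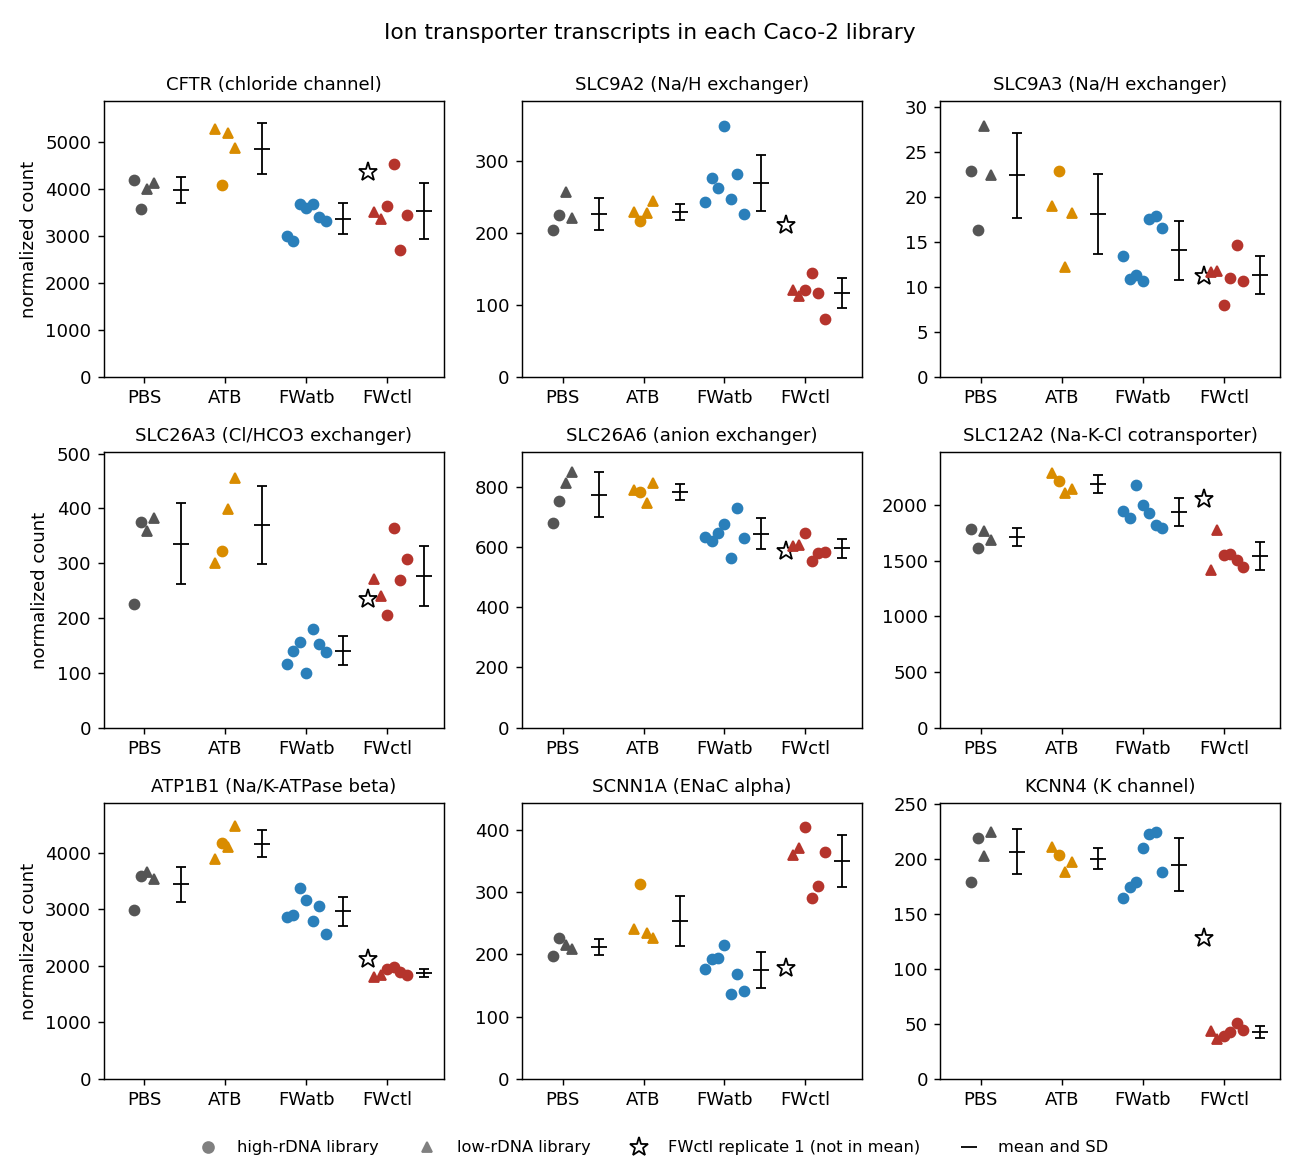
Normalized counts (linear axes from 0) of the 9 transporter genes in each library, by group, with circles for high-rDNA and triangles for low-rDNA libraries, a star for FWctl replicate 1, and the mean and SD of each group without that replicate. KCNN4 was at 35.9 to 51.0 in the FWctl libraries and at 164.8 or more in all PBS, ATB and FWatb libraries.

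**Figure D2:**
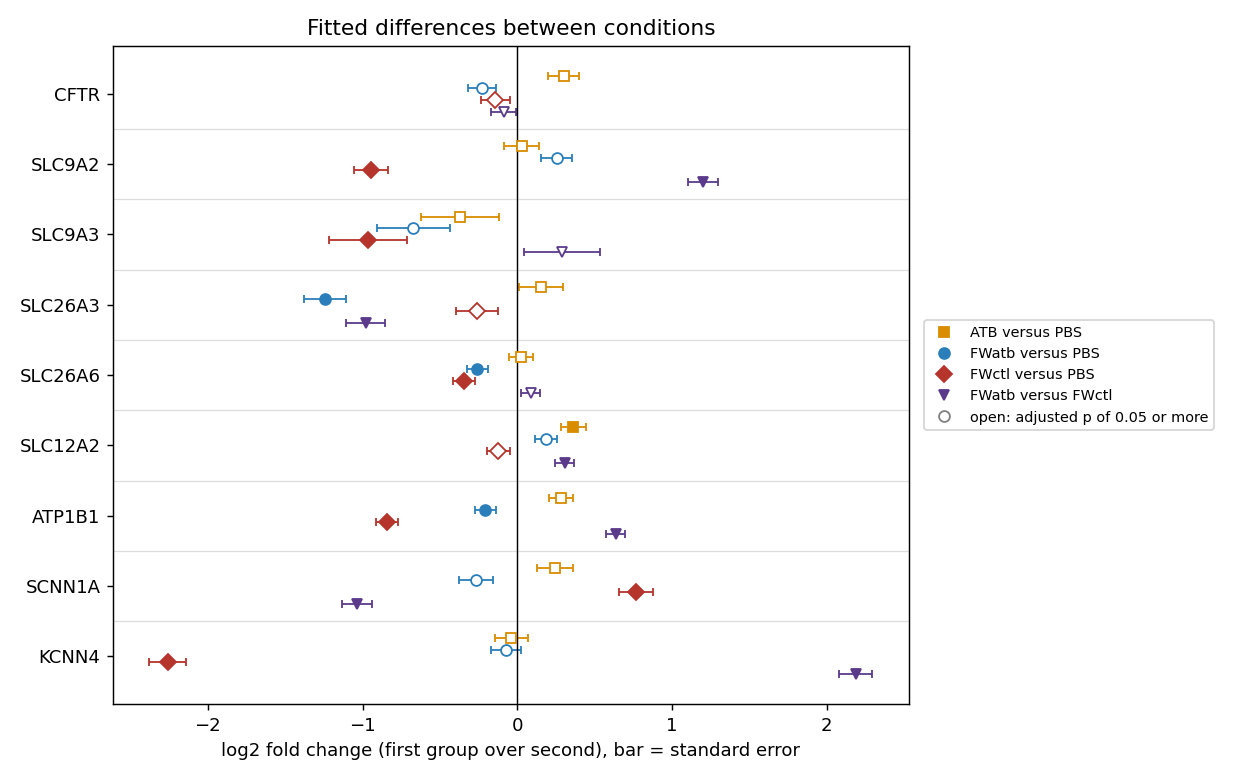
Log2 fold change of each member (horizontal axis, first group over second) with its standard error, for 4 comparisons; filled symbols have an adjusted p under 0.05. SCNN1A and KCNN4 moved in opposite directions under FWctl, and SLC26A3 is the member furthest below 0 under FWatb against PBS.

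KCNN4 had the largest log2 fold changes of the 9 members between FWctl and PBS and between FWatb and FWctl. KCNN4 (chromosome 19, 43766533 to 43780976, minus strand, GRCh38) encodes a calcium-activated potassium channel. It had 179.4, 219.8, 202.8 and 225.1 normalized counts in the PBS libraries and 211.1, 204.3, 188.6 and 197.8 in the ATB libraries. Under FWatb it ranged from 164.8 to 224.5 (median 188.5), and under FWctl from 35.9 to 51.0 (median 43.0). No FWctl library overlapped any other group, whereas PBS, ATB and FWatb overlapped each other. The FWctl mean of 42.7 ± 5.24 (SD, n = 6) was below the PBS mean of 206.8 ± 20.6 (SD, n = 4), with a fitted log2 fold change of -2.26 (SE 0.12, edgeR adjusted p = 1.55e-19), a fitted 4.79-fold difference. FWatb exceeded FWctl by 2.19 (SE 0.11, edgeR adjusted p = 3.61e-20), while FWatb and PBS differed by -0.07 (SE 0.10, adjusted p = 0.723) and ATB and PBS by -0.04 (SE 0.11, adjusted p = 0.973). The FWctl difference from PBS was -2.19 within the high-rDNA libraries and -2.42 within the low-rDNA libraries. FWctl replicate 1, at 128.4, lay between the FWctl range and the ranges of the other groups. With that replicate included, over all 22 samples, FWctl against PBS gave -1.86 and FWatb against FWctl 1.78.

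The sodium-proton exchangers differed in abundance and in how well they could be measured. SLC9A2 (chromosome 2, 102619553 to 102711355, plus strand) encodes NHE2, an apical exchanger of sodium for protons. It had 204.1, 224.5, 257.1 and 220.6 normalized counts under PBS and 229.4, 216.6, 228.5 and 244.1 under ATB. It ranged from 227.1 to 348.5 (median 262.6) under FWatb and from 80.1 to 144.6 (median 118.9) under FWctl. The FWctl libraries were again below every library of the other groups. The log2 fold change was -0.95 for FWctl against PBS (SE 0.11, edgeR adjusted p = 2.17e-09) and 1.20 for FWatb against FWctl (SE 0.10, edgeR adjusted p = 1.91e-13). FWatb, ATB and PBS, in that order of level, did not differ from each other at the threshold (0.25 for FWatb against PBS, adjusted p = 0.107). FWatb against PBS passed it with the replicate block (0.30, adjusted p = 0.0299) and with library size alone (0.33, adjusted p = 0.0229). FWctl replicate 1, at 210.8, was within the PBS range. Over all 22 samples FWctl against PBS gave -0.80 and FWatb against FWctl 1.04.

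SLC9A3 (chromosome 5, 470456 to 524449, minus strand) encodes NHE3, the main apical sodium-proton exchanger of absorptive enterocytes, and was the least abundant member. Its raw counts were 14 to 40 under PBS and 6 to 18 under FWctl. Normalized counts were 22.9, 16.3, 27.9 and 22.4 under PBS, 19.0, 22.9, 12.2 and 18.2 under ATB, 10.6 to 17.9 under FWatb (median 13.4) and 7.99 to 14.6 under FWctl (median 11.3). FWctl lay below PBS without overlap, by -0.96 on the log2 scale (SE 0.25, edgeR adjusted p = 0.00143), and this call was lost within the high-rDNA libraries (-0.86, adjusted p = 0.0883). Neighbours in the order PBS, ATB, FWatb, FWctl did not differ at the threshold. Of its 5754 exonic bases, 2363 are shared with PP7080 on the same strand (31 counts in all), 839 with EXOC3 and 830 with SLC9A3-AS1, both on the opposite strand. The library kit marks strand, and whether reads were counted by strand is not given in the sources used here. SLC9A3-AS1, with 3364 counts in all against 376 for SLC9A3, had a log2 fold change of -1.29 between FWctl and PBS (SE 0.11, edgeR adjusted p = 1.54e-13), and EXOC3, with 6824 counts, had 0.35 (SE 0.08, edgeR adjusted p = 0.000424). If strand was not used, reads from the shared bases of opposite genes cannot be told apart.

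SCNN1A was the member whose transcript was higher with FWctl than with PBS. SCNN1A (chromosome 12, 6346843 to 6377730, minus strand) encodes the alpha subunit of the epithelial sodium channel. It had 196.8, 226.8, 215.3 and 207.8 normalized counts under PBS and 240.5, 313.5, 233.9 and 225.8 under ATB. It ranged from 136.6 to 215.5 (median 175.9) under FWatb and from 290.8 to 404.7 (median 361.8) under FWctl. FWctl was above PBS and FWatb without overlap, and overlapped ATB through ATB replicate 2. The log2 fold change was 0.77 for FWctl against PBS (SE 0.11, edgeR adjusted p = 1.09e-07), -1.03 for FWatb against FWctl (SE 0.10, edgeR adjusted p = 3.33e-12) and -0.51 for FWatb against ATB (SE 0.11, edgeR adjusted p = 0.000626). PBS did not differ at the threshold from ATB (0.24, adjusted p = 0.585) or FWatb (-0.27, adjusted p = 0.115). The genes of the beta and gamma subunits, SCNN1B and SCNN1G, had at most 1 and 2 counts in a library and were not tested. SCNN1A shares 422 exonic bases with LTBR on the opposite strand, whose log2 fold change was -0.08 for FWctl against PBS (adjusted p = 0.43) and 0.24 for FWatb against FWctl (adjusted p = 0.00496), the latter opposite in direction to SCNN1A. FWctl replicate 1, at 178.2, was inside the FWatb range and below every other FWctl library. Over all 22 samples FWctl against PBS gave 0.62.

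The sodium pump transcript ATP1B1 was lowest with FWctl. ATP1B1 (chromosome 1, 169105697 to 169310992, plus strand) encodes the beta subunit that brings the sodium pump to the membrane. Its normalized counts were 2983, 3581, 3657 and 3530.2 under PBS and 3886, 4172, 4108 and 4466 under ATB. They ranged from 2562 to 3377 (median 2899) under FWatb and from 1794 to 1974 (median 1864) under FWctl. The FWctl libraries were below all others. The log2 fold change was -0.84 for FWctl against PBS (SE 0.07, edgeR adjusted p = 3.77e-13), 0.64 for FWatb against FWctl (SE 0.06, edgeR adjusted p = 2.45e-11) and -0.49 for FWatb against ATB (SE 0.07, edgeR adjusted p = 1.51e-06). FWatb against PBS gave -0.21 (SE 0.07, edgeR adjusted p = 0.0475) with overlapping ranges, and this call was lost in 18 alternatives, among them the high-rDNA libraries alone (-0.16, adjusted p = 0.345) and leaving out PBS replicate 2, 3 or 4, FWctl replicate 3 or 4, FWatb replicate 1, 2, 6, 7 or 8, or ATB replicate 1 or 4. FWctl replicate 1, at 2121, was above the other FWctl libraries and below every library of the other groups.

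Of the genes of anion exchangers, SLC26A3 was lowest with FWatb, and SLC26A6 was lower than PBS with both faecal waters. SLC26A3 (chromosome 7, 107765467 to 107803225, minus strand) encodes the apical chloride-bicarbonate exchanger that takes up chloride in the colon. It had 225.2, 374.5, 359.5 and 383.1 normalized counts under PBS and 300.6, 322.3, 398.1 and 456.2 under ATB. It ranged from 206.3 to 364.7 (median 270.2) under FWctl and from 98.9 to 179.5 (median 139.3) under FWatb. Every FWatb library was below every library of the other groups. The log2 fold change of FWatb was -1.24 against PBS (SE 0.14, edgeR adjusted p = 2.98e-08), -0.98 against FWctl (SE 0.13, edgeR adjusted p = 2.03e-08) and -1.40 against ATB (SE 0.13, edgeR adjusted p = 7.94e-10). Within the high-rDNA libraries the values were -1.09 against PBS (adjusted p = 0.000126) and -1.01 against FWctl (adjusted p = 2.81e-07). FWctl against PBS gave -0.26 (SE 0.13, adjusted p = 0.11). With the replicate number as a block it was -0.49 (adjusted p = 0.00032), a block that in PBS and FWctl shares only a number. That difference was -0.53 (adjusted p = 0.00331) within the low-rDNA libraries and -0.07 (adjusted p = 0.79) within the high-rDNA libraries, and -0.44 (adjusted p = 0.00564) without PBS replicate 1, the lowest PBS library. It also passed the threshold without FWctl replicate 6 (-0.39, adjusted p = 0.0165), without FWctl replicate 8 (-0.34, adjusted p = 0.0497) and without FWatb replicate 4 (-0.30, adjusted p = 0.0497).

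SLC26A6 (chromosome 3, 48625723 to 48635493, minus strand) encodes an apical exchanger of chloride for bicarbonate and oxalate. Its normalized counts were 679.1, 753.6, 813.1 and 848.6 under PBS and 790.7, 781.9, 746.3 and 811.5 under ATB, 563.9 to 731.1 (median 633.6) under FWatb and 554.9 to 648.3 (median 593.1) under FWctl. FWctl was below PBS by -0.35 on the log2 scale (SE 0.07, edgeR adjusted p = 7.79e-05), without overlap. FWatb was below PBS by -0.26 (SE 0.07, edgeR adjusted p = 0.00985), with overlapping ranges and no call within the high-rDNA libraries (-0.17, adjusted p = 0.303) or without PBS replicate 4 (-0.22). The 2 faecal waters did not differ at the threshold (0.09, SE 0.06, adjusted p = 0.268).

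The transcripts of chloride secretion, CFTR and SLC12A2, did not differ at the threshold between either faecal water and PBS in the edgeR test of 21 libraries. CFTR (chromosome 7, 117287120 to 117715971, plus strand) encodes a chloride channel. It had 4187, 3569, 4005 and 4125 normalized counts under PBS and 5277, 4084, 5195 and 4883 under ATB. It ranged from 2892 to 3691 (median 3396) under FWatb and from 2708 to 4529 (median 3482) under FWctl. Neighbours in the order ATB, PBS, FWctl, FWatb did not differ at the threshold, while the ends did (FWatb against ATB -0.53, SE 0.09, edgeR adjusted p = 3.7e-05). FWctl against PBS gave -0.14 (SE 0.09, adjusted p = 0.221), and -0.27 (adjusted p = 0.012) without FWctl replicate 6, its highest library. SLC12A2 (chromosome 5, 128083766 to 128189677, plus strand) encodes NKCC1, the cotransporter that loads the cell with chloride. It had 1789, 1611, 1768 and 1686 normalized counts under PBS and 2291, 2219, 2112 and 2145 under ATB, 1798 to 2183 (median 1932) under FWatb and 1416 to 1774 (median 1530.1) under FWctl. FWatb was above FWctl by 0.31 on the log2 scale (SE 0.06, edgeR adjusted p = 6.04e-05) without overlap. FWatb against PBS gave 0.19 (SE 0.07, edgeR adjusted p = 0.0832), not called though the ranges did not overlap. DESeq2 called that difference (0.18, adjusted p = 0.0369). So did edgeR with library size alone (0.26, adjusted p = 0.0218) and with the replicate block (0.23, adjusted p = 0.0148). The SLC12A2 count of FWctl replicate 1, set apart, was 2057 and lay within the FWatb range. ATB was above PBS by 0.36 (SE 0.08, edgeR adjusted p = 0.0241) without overlap, the only member called in that comparison. That call was lost in 12 alternatives, with adjusted p from 0.0514 to 0.272, among them leaving out any 1 of the 4 PBS libraries, ATB replicates 1, 3 or 4, FWctl replicate 4 or FWatb replicate 2.

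Of the 9 members, 3 were called between FWatb and FWctl and also passed an absolute log2 fold change of 1 (KCNN4, SLC9A2 and SCNN1A). That is the study's own threshold for this comparison, and 12.7% of all genes tested passed it. SCNN1A was just inside at -1.03 and SLC26A3 just outside at -0.98. SCNN1A fell short of that threshold within the high-rDNA libraries (-0.97) and over all 22 samples (-0.90). FW samples with the same number may come from the same mouse. Over the 6 same-numbered pairs that leave out number 1, SLC9A2, SLC26A6, SLC12A2, ATP1B1 and KCNN4 were higher under FWatb in 6 of 6, SLC26A3 and SCNN1A in 0 of 6, CFTR in 2 and SLC9A3 in 4. The log2 ratio ranged from 1.98 to 2.42 for KCNN4, from -1.36 to -0.88 for SCNN1A and from 0.02 to 0.33 for SLC26A6, which was not called. The pair with FWctl replicate 1 had 0.36 for KCNN4 and -0.02 for SCNN1A, both nearer to 0 than in any other pair, and -0.99 for SLC26A3, inside the range of the others (-1.14 to -0.61). In that pair SLC12A2 had -0.08, opposite in direction to its other 6 pairs. FWctl replicate 1 was outside the range of the other FWctl libraries for 5 members (SLC9A2, SLC12A2, ATP1B1, SCNN1A and KCNN4) and inside it for 4.

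Between FWctl and ATB, a contrast added to order the groups, 8 members were called, 1 higher and 7 lower, against 45.6% of all genes. The exception was SLC9A3 (-0.59, adjusted p = 0.0603). Per kilobase of canonical transcript, the PBS levels ran from ATP1B1 (1551 normalized counts per kilobase) through CFTR (654.3), SLC26A6 (296.3), SLC12A2 (249.3), SLC26A3 (116.4), KCNN4 (105.7), SCNN1A (67.2) and SLC9A2 (40.5) to SLC9A3 (4.02). Under FWctl, SCNN1A (111.2) had rank 5 and KCNN4 (21.8) rank 7.

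The upstream sequences of KCNN4, SLC9A2 and SLC26A3 are shown because these are members called with an absolute log2 fold change above 1 in FWatb against FWctl or against PBS and have an entry in the RefSeq promoter table. SCNN1A was not found there. Capitals mark matches on either strand to 6 sets of letters, which were AP-1 (TGANTCA), the SP/KLF GC box (GGGCGG), CRE (TGACGTCA), the xenobiotic response element core (GCGTG) and the antioxidant response element core in a loose (TGANNNNGC) and a stricter form (TGACNNNGC). The stricter form lies within the loose one and was added after the matches of the loose form had been seen. The stretches are chr19:43780977-43781223, chr2:102619303-102619552 and chr7:107803226-107803473 of GRCh38.p14, on the minus, plus and minus strand, and end just before the first exon.
KCNN4: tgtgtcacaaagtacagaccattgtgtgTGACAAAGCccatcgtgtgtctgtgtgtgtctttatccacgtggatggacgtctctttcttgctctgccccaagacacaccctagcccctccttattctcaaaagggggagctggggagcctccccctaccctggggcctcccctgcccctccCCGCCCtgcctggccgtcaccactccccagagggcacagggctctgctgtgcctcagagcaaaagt
SLC9A2: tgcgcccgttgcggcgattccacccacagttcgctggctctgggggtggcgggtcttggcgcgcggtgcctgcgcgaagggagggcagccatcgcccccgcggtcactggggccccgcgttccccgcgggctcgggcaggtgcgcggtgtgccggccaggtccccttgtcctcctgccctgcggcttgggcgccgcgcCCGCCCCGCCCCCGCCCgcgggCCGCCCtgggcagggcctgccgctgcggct
SLC26A3: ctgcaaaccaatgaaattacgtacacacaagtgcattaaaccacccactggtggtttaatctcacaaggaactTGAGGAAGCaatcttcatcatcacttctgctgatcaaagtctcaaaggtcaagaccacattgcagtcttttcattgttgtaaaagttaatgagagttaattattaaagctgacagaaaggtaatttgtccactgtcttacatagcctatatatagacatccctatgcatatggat
KCNN4 holds 1 GC box and 1 match that meets both forms of the antioxidant core. SLC9A2 holds 4 overlapping or neighbouring GC boxes in a stretch of 79.6% GC, and SLC26A3, with 37.6% GC, holds 1 match to the loose antioxidant core and none to the stricter form. Of 35116 promoters of the same length, 42.6% hold a GC box, 35.2% the loose and 10.9% the stricter antioxidant core, 32.2% the xenobiotic core, 6.57% AP-1 and 1.65% CRE. The matches are descriptions of these letters only.

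Of 71 other ion and fluid transport genes, a list also chosen with earlier results of these data known, 58 were tested. Between FWctl and PBS, 37 were called, 6 higher and 31 lower, where 46.4% of all genes were called (24.3% higher and 22.1% lower), with a median log2 fold change of -0.32 (0.02 over all genes). All 6 aquaporins tested, the water and glycerol channels, were lower under FWctl, with a median of -1.94. AQP3, a basolateral water and glycerol channel, went from 1511 ± 196.5 (SD, n = 4) under PBS to 147.0 ± 24.5 (SD, n = 6) normalized counts, a log2 fold change of -3.34 (SE 0.10, edgeR adjusted p = 1.11e-27). AQP1 and AQP10 were low, with means of 4.73 and 16.5 under PBS. Of the secretory signals, 8 of 9 were called, 2 higher (PRKG2 at 1.36 and GUCY2C at 0.39) and 6 lower. Among the lower were GUCA2A, which encodes guanylin (-2.56), and the purinergic receptor gene P2RY2 (-1.61). Of the anion exchange and bicarbonate genes, 5 of 8 were called, 1 higher and 4 lower, among them the carbonic anhydrase genes CA2 (-2.36) and CA12 (-1.42) and the sulfate transporter gene SLC26A2 (-1.54, from 12685 to 4288 normalized counts). Of the sodium-proton exchange genes 7 of 8 were called, 2 higher (SLC9A8 at 1.05 and EZR at 0.49) and 5 lower. Of 6 genes of the epithelial sodium channel and its regulation, 3 were called, all lower (NEDD4L, SGK1 and HSD11B2). The subunit gene SCNN1D of that list was not called (-0.45, edgeR adjusted p = 0.326). Of the chloride channel, cation-chloride cotransport, sodium pump and potassium channel genes, 2 each of 5, 7, 4 and 5 were called. The shares of these last 5 lists were near or below the 46.4% over all genes.

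Between FWatb and FWctl, 39 of the 58 were called, 29 higher and 10 lower (48.8% of all genes), with AQP3 (3.01), GUCA2A (2.51), CA2 (from 17.0 to 76.0 normalized counts), CA12 (1.93), P2RY2 (1.73) and SLC26A2 (1.69) at the largest sizes by the naming rule. Of the 10 lower genes, PRKG2 (-1.69) and SLC9A8 (-0.96) had the largest sizes. Between FWatb and PBS, 9 were called (5 higher, 4 lower), where 9.99% of all genes were called, among them AQP7 (-0.63), AQP3 (-0.33), ADORA2B (0.59), CA12 (0.52), SGK1 (0.33) and SLC4A2 (0.32). Within the high-rDNA libraries, which include 2 PBS libraries, 4 were called. Between FWatb and ATB, 14 were called (5 higher, 9 lower), where 14.5% of all genes were called, including AQP7 (-0.69), AQP11 (-0.57), AQP3 (-0.50), CA12 (0.61), GUCY2C (-0.45) and PRKG2 (-0.43), and 7 with the library set as a covariate. Between ATB and PBS edgeR called 0 of the 58 (0.285% of all genes), with 4 at an unadjusted p under 0.05, and DESeq2 called 2. Shares over all genes are not given for the library sets, the covariate or DESeq2, so those counts cannot be read as particular to these genes.

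**Figure D3:**
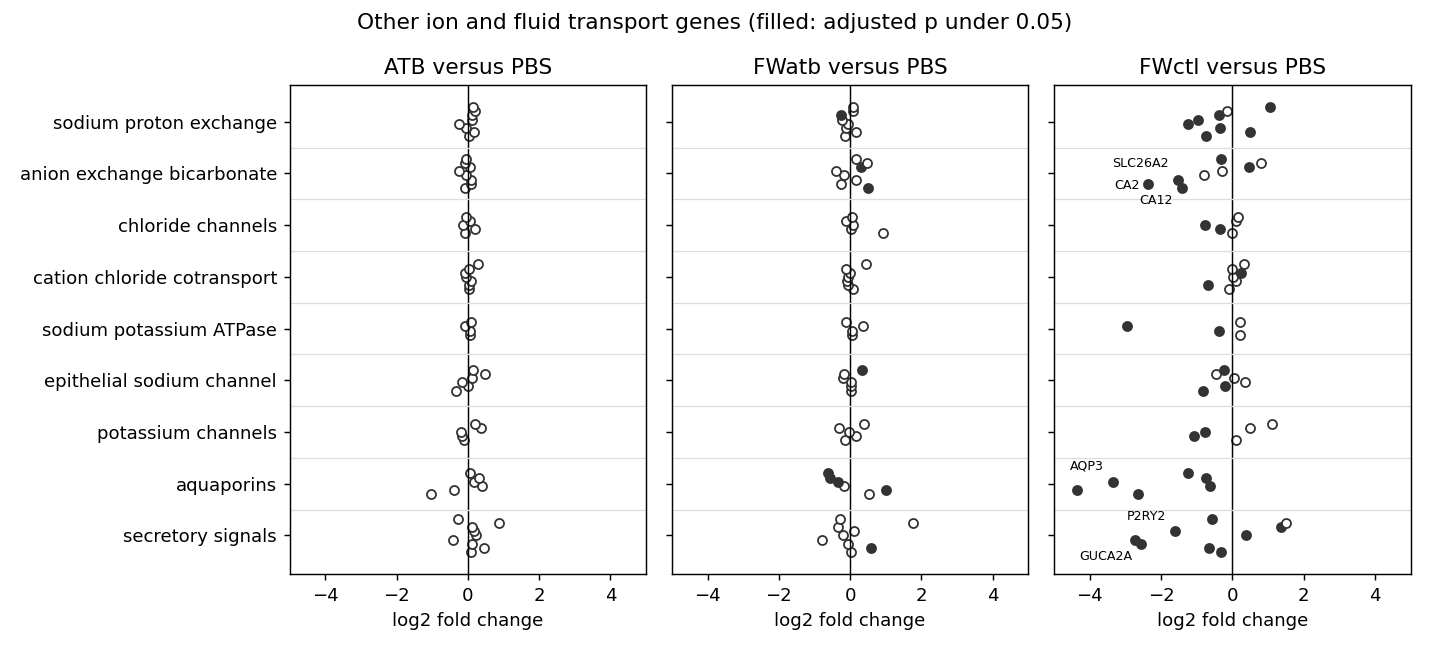
Log2 fold change against PBS (horizontal axis) of the 58 other ion and fluid transport genes tested, by role, under ATB, FWatb and FWctl; each point is 1 gene, filled where the adjusted p is under 0.05, and the 6 named genes of FWctl against PBS are labelled. The aquaporins lie below 0 in all 6 cases under FWctl, with AQP3 at -3.34.

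Markers of maturing enterocytes were also lower under FWctl. The summed normalized counts of 6 such genes were 779 to 1026 per library under PBS, 1035 to 1402 under ATB, 610.4 to 853.5 under FWatb and 465.2 to 563.4 under FWctl. ANPEP had a mean of 118.5 under PBS and 22.7 under FWctl, SI of 468.5 and 184.8, and ALPI of 217.4 and 277.9. The 8 immune, endothelial and stromal markers, of which 5 were tested, summed to 160.2 to 170.7 under PBS and 74.6 to 106.5 under FWctl, with COL1A1 at 82.2 and 11.1, PECAM1 at 58.8 and 27.6 and VWF at 10.1 and 39.6. Their part in the transporter differences was not tested, and in bulk RNA fewer cells of a type and less RNA per cell cannot be told apart.

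By the root mean square difference of log2 profiles centred on their mean over 21 samples, among 9113 genes, the nearest gene was GCNT1 for KCNN4 (0.21), GINS1 for SLC9A2 (0.16), HEPACAM2 for SLC26A3 (0.25), ENTPD7 for SLC12A2 (0.07), ERP44 for ATP1B1 (0.10) and BRPF3 for SCNN1A (0.14). The median over all candidates was 1.02, 0.56, 0.68, 0.30, 0.46 and 0.48 in the same order.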

How the data were processed

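The authors trimmed reads with Trimmomatic 0.38, aligned them to GRCh38 with HISAT2 2.1.0 and assigned them to Ensembl genes with featureCounts (Subread 2.0.0), per the submitters' processing notes and the methods. The deposited values are raw counts, neither normalized nor filtered, for 22 libraries of total RNA after rRNA depletion. Gene names and positions came from GENCODE release 44, where 61369 identifiers matched.

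Conditions came from the sample labels. The members and gene lists were chosen with earlier results of these data known. edgeR 4.0.16 (R 4.3.3; TMM, quasi-likelihood test, Benjamini-Hochberg adjustment) was fitted to 4 groups and 21 libraries, over genes that exceeded 5 counts in 3 or more samples, and was tested on simulated data. All 54 replicate pairs differed by more than counting noise (chi-square over degrees of freedom 3.95 to 140.1), so no library was a mere repeat read of another. The check cannot show whether samples were separate cultures. Intervals of counting error are not given, since replicate spread is larger. Named genes were all 9 members, up to 6 other transport genes per comparison with the largest called change and a mean of at least 50 normalized counts, and the nearest gene of each member called between FWatb and FWctl (mean of at least 100.0). AQP1, AQP10, AQP11, PRKG2, GUCY2C, SLC9A8, EZR, NEDD4L, SGK1, HSD11B2, SCNN1D, genes overlapping members and markers were named outside this rule where a count or limit rests on them. Profiles used a pseudocount of 1. The alternatives were other samples, DESeq2 1.42.0, other scalings and filters, library sets, the replicate block, other thresholds and each replicate left out.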

Additional observations from a re-analysis of the deposited data

Results flagged for a closer look

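Of 36 groups of member counts examined, 2 held a library far from its own group, where chance gives about 1 in 20 (1.8 expected). SLC26A3 had 225.2 normalized counts in PBS replicate 1, against 359.5 to 383.1 in the other PBS libraries. SCNN1A had 313.5 in ATB replicate 2, the only high-rDNA ATB library, against 225.8 to 240.5 in the other ATB libraries. FWctl replicate 1 stood far from the other FWctl libraries on the first principal component, at 8.74 against 34.5 to 38.9. The cause of these values was not tested.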

How the results depend on the processing

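The count of members called between FWatb and PBS (3) became 7 with the replicate block, which added SLC9A2, SLC9A3, CFTR and SLC12A2, and 1 within the high-rDNA libraries or with the library set as covariate, and ranged from 1 (without PBS replicate 4) to 4 as each replicate was left out. Between ATB and PBS the count of 1 became 0 over all 22 samples, with library size alone and within the low-rDNA libraries, 2 with DESeq2 and 2 with the replicate block, and ranged from 0 to 1 as each replicate was left out. Between FWatb and FWctl 6 members were called with every replicate left out in turn, and the count of 3 past an absolute log2 fold change of 1 became 5 at 0.5 and 1 at 1.5 and was 2 to 3 with 1 replicate left out. Of the other transport genes, the 9 called between FWatb and PBS became 5 over all 22 samples, 4 within the high-rDNA libraries and 4 with the set as covariate, the 14 between FWatb and ATB became 9 and 7 over all samples and with the covariate, and the 0 between ATB and PBS became 2 with DESeq2. Single libraries also brought uncalled values past the threshold: SLC12A2 for FWctl against PBS without PBS replicate 2 or FWctl replicate 3 (-0.19), SLC9A3 for FWatb against PBS without PBS replicate 2 or FWatb replicate 6, SCNN1A for FWatb against PBS without FWatb replicate 4 (-0.34) and SLC12A2 for FWatb against ATB without FWatb replicate 3 (-0.21). The cause was not tested. Shares over all genes are not given for the alternatives, so changes in these counts cannot be read as particular to these genes.

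Directions turned in 12 cases, all of values not called. With library size alone KCNN4 turned to 0.0022 (FWatb against PBS) and 0.0568 (FWatb against ATB), and CFTR to 0.0211 (FWatb against FWctl). With 1 replicate left out CFTR lay between -0.1086 and 0.0258, the latter without FWctl replicate 6. For ATB against PBS, SLC9A2 turned to -0.0234 and SLC26A6 to -0.0813 in the low-rDNA libraries, and with 1 replicate left out SLC9A2 lay between -0.0218 and 0.0834, SLC26A6 between -0.0413 and 0.0654 and KCNN4 between -0.1066 and 0.001, with turned values of -0.0058, -0.0001 and -0.0006 among them.

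Both faecal waters came from the same mice per the methods, and that the number marks the mouse is an inference. Deviations of same-numbered FWctl and FWatb samples correlated by 0 to 0.098 over 6 pairs (mean 0.039, against -0.008 for different numbers), and 3 of 6 correlated best with their own number. With the replicate block, 6 members were still past the threshold between FWatb and FWctl and 2 past an absolute log2 fold change of 1, since SCNN1A moved to -0.9949. FWatb has no low-rDNA library, so the set and FWatb cannot be told apart within that set, and FWatb against ATB has no within-set value.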
